A study of Oryza sativa with 12 samples.

Results

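The mock-treated shoot apex of rice was profiled on 6 of the 12 arrays of the series: 3 arrays of apices taken after 12 h of mock treatment and 3 taken after 3 h. They were chosen by their labels, and the other 6 arrays are apices treated with dexamethasone (DEX) for the same times. All seedlings, mock ones included, were of the host strain Taichung 65 and carried *pACT1-GVG>OsWOX4*:*RNAi*, in which the *ACT1* promoter drives GVG, a transcription factor that switches on the RNAi construct once it binds DEX. The mock 12 h group was therefore this line without DEX, kept for 12 h in shaken liquid MS medium from an age of 5 days, and the mock 3 h group was the same line after 3 h in that medium. Host plants without the construct were not analysed here, and how many transgenic lines the seedlings came from is not given in the sources used here. Each array was a biological replicate of apices that held the shoot apical meristem (SAM) and leaf primordia, so fewer cells of a type and less RNA per cell cannot be told apart. Values are normalized log2 signals of 54922 array rows (probe sets), of which 15829 are paired with 1 gene. A total of 1734 genes had a printable name.

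The SAM of a grass seedling keeps a small group of undifferentiated cells at the tip and forms leaf primordia at its flank. Some KNOX homeobox genes, such as *OSH1*, maintain the indeterminate state, and YABBY genes, *DL* and class III HD-ZIP genes pattern the young leaf. LOG enzymes make active cytokinin, a hormone that promotes cell division in the apex. Many plant genes also follow the circadian clock, in which *LHY*, the PRR genes, *GI* and *PCL1* peak at different times of day.

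Array medians overlapped, at log2 signals of 5.72 to 5.74 in the 12 h arrays and 5.73 to 5.76 in the 3 h arrays. Upper quartiles did not overlap, at 7.378 to 7.396 in the 12 h arrays and 7.416 to 7.432 in the 3 h arrays, and neither did the mean over all rows, at 5.989 to 6.004 in the 12 h arrays and 6.007 to 6.032 in the 3 h arrays. Pearson's r over all rows was 0.986 to 0.990 for the 6 pairs of arrays within a time and 0.984 to 0.988 for the 9 pairs between times. Replicate 2 of mock 3 h lay nearest to the 12 h arrays more often than the other 3 h replicates. It was the 3 h array with the highest signal for 19 of the 20 named genes with the largest positive difference between 12 h and 3 h. It was the lowest for 10 of the 20 with the largest negative difference. Its part in the results was tested by leaving it out.

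The 12 brightest named rows over the 6 mock arrays included genes of actin and tubulin, of ribosomal proteins and of glycolytic enzymes. *ACT1*, an actin gene and the source of the promoter in the construct, had a mean log2 signal of 12.85 ± 0.05 (SD, n = 6 arrays, as for all levels that follow). It was followed by the ribosomal stalk protein gene *60SP0* at 12.70 ± 0.07, *AD709* at 12.67 ± 0.07 and an α-tubulin gene listed as *TubA* (NCBI gene 4350197) at 12.59 ± 0.06. Then came *atpI* at 12.47 ± 0.07, the ribosomal protein gene *RPL39C* at 12.47 ± 0.03, the cytosolic glyceraldehyde-3-phosphate dehydrogenase gene *GAPC2* at 12.40 ± 0.04 and the calcium-dependent kinase gene *CPK24* at 12.40 ± 0.22. *RPL9* at 12.24 ± 0.03, the triosephosphate isomerase gene *Rictpi2* at 12.07 ± 0.10, the glutaredoxin gene *GRXC8* at 11.98 ± 0.15 and the aldolase gene *AldC-1* at 11.78 ± 0.10 made up the 12 brightest. All 12 were among the brightest 2% of rows, with percentiles from 98.8 to 99.8. A row's brightness also depends on its probes, so the order of rows is not an order of transcript amounts.

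At the other end, the 8 dimmest named rows included 2 glutelin genes. *H2B.4*, a histone H2B gene, was lowest at 1.65 ± 0.36, and the small heat shock protein gene *HSP18.9* had 1.77 ± 0.10. *BHLH148* followed at 1.82 ± 0.08, *BIP4* at 1.83 ± 0.20 and the seed storage glutelin gene *GLUB-2* at 1.96 ± 0.37. *NF-Y4* had 2.05 ± 0.08, the glutelin gene *GLUD-1* 2.18 ± 0.09 and *BURP2* 2.23 ± 0.19. The table holds no detection calls, so these rows are dim and not shown to be unexpressed. The median row of the array had a log2 signal of 5.72, and the middle 50% of rows lay between 4.46 and 7.40.

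The labelled tissue was set against its markers. The meristem markers among KNOX genes were above the median row, with *OSH71* at 7.11 ± 0.26, *OSH15* at 7.04 ± 0.16 and *OSH1* at 6.67 ± 0.25. *HOS58* had 6.33 ± 0.22 and *OSH45* 6.07 ± 0.20, and the KNOX rows *HOS66* (5.11 ± 0.21) and *HOS59* (4.61 ± 0.20) lay below the median row. In all, 5 of 7 KNOX rows exceeded the median row and 0 reached the brightest 10%, which began at 8.87. Most rows of the array are unnamed, and named genes were brighter: 68.8% of them exceeded the median row and 18.2% reached the brightest 10%, with a median of 6.94 over the 1734. Among named genes *OSH71* was at percentile 53.3, *OSH15* at 52.0 and *OSH1* at 44.9. The counts for the lists that follow have these shares as their background.

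Leaf regulators were brighter. All 6 YABBY rows exceeded the median row, from *YAB3* at 6.78 ± 0.11 and *YAB1* at 7.48 ± 0.36 through *YAB4* at 7.75 ± 0.10 and *YAB2* at 8.27 ± 0.16. *DL*, which is needed for the midrib, had 8.57 ± 0.12, and *YAB5* had 9.46 ± 0.07. The 4 class III HD-ZIP genes, which act in the upper leaf side and in xylem, lay within a narrow band in the brightest 10% of rows. *HOX10* had 9.59 ± 0.03, *hox32* 9.54 ± 0.14, *HOX33* 9.41 ± 0.10 and *HOX9* 9.12 ± 0.07. The vascular gene *OsPNH1*, which encodes an Argonaute protein, was also bright at 8.34 ± 0.04 (percentile 85.6), while the homeobox gene *HOX1* was dim at 3.47 ± 0.46.

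Of the WOX homeobox genes, *WOX4* had 7.07 ± 0.13 in the absence of DEX. Its row may read both the endogenous transcript and any transcript of the RNAi construct. The other named WOX rows were in the dimmest 25% of the array, with *QHB*, a marker of the root quiescent center, at 4.10 ± 0.20, *WOX7* at 4.02 ± 0.14 and *WOX6* at 3.82 ± 0.18. Only 4 WOX genes had a printable name, so the family is not covered. The paper lists further members from its arrays, such as *OsWOX3* and *OsWOX13*, with mock signals well above that of *QHB*. Among genes of cytokinin activation, *LOGL7* had 8.39 ± 0.09, *LOGL3* 7.67 ± 0.20 and *LOGL1* 7.63 ± 0.23. *LOGL10* had 6.57 ± 0.10, *LOG*, first known from the rice meristem, 6.06 ± 0.27, and *LOGL6* 5.43 ± 0.10. Cytokinin perception was represented by the receptor gene *HK3* at 8.28 ± 0.10 and the phosphotransfer gene *HP1* at 8.79 ± 0.11.

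The lists of proliferating cells had medians above the 6.94 of all named genes. So had other lists, such as those of clock genes (8.57) and light harvesting genes (7.93). All 22 named DNA replication genes exceeded the median row, with a list median of 8.58, and *MCM2*, a subunit of the replicative helicase, had 10.24 ± 0.14. Of 33 cyclin and CDK genes 30 exceeded the median row, with a list median of 8.05, and *CDKF-4* was the brightest at 10.41 ± 0.11. Kinesin motor genes had a list median of 8.91, led by *KIN5C* at 10.59 ± 0.13, and 12 of 23 were in the brightest 10%. Of 23 genes of small RNA pathways 21 exceeded the median row, with *AGO4B*, an Argonaute of DNA methylation, at 10.82 ± 0.08. The 9 cytosolic ribosomal protein genes had a list median of 11.29, the brightest of the 43 lists with a member.

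Markers of other tissues were spread over the array. Of the 3 root genes, *QHB* and *SCR2* (4.39 ± 0.20) were in the dimmest 25% of rows, and *SHR1* had 6.80 ± 0.12. Of 21 MADS genes, many of which specify flower organs, 11 were in the dimmest 25%, whereas *mads47* had 9.14 ± 0.11. The seed storage list of 8 genes also held *BZIP52*, by its name a bZIP gene and not a storage protein gene. Of the 8, 4 were in the dimmest 25%, but the glutelin row of *GLUB-5* had 7.71 ± 0.12 and that of *GLUA1* 6.35 ± 0.19. Of 10 genes of light harvesting and chlorophyll synthesis 9 exceeded the median row, and the chlorophyll-binding protein genes *RCABP69* and *CAB2R* had 10.76 ± 0.13 and 9.13 ± 0.15. The mean signals over these lists overlapped between the times, but those of some members did not. Without overlap, 2 of the 10 light harvesting genes were higher at 12 h and 3 lower, and 3 of the 8 seed genes higher and 1 lower. Of the 21 MADS genes 3 were lower in this way and 0 higher, and of the 3 root genes 1 and 0. Over named genes the shares were 11.9% higher and 10.5% lower, and over all rows 7.77% and 11%. The mean log2 signal over the photosynthetic genes was 7.78 to 7.83 in the 12 h arrays and 7.73 to 7.87 in the 3 h arrays. For the seed genes it was 5.02 to 5.15 at 12 h and 4.90 to 5.06 at 3 h, and for the root genes 5.00 to 5.23 at 12 h and 5.02 to 5.18 at 3 h.

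**Figure D1:**
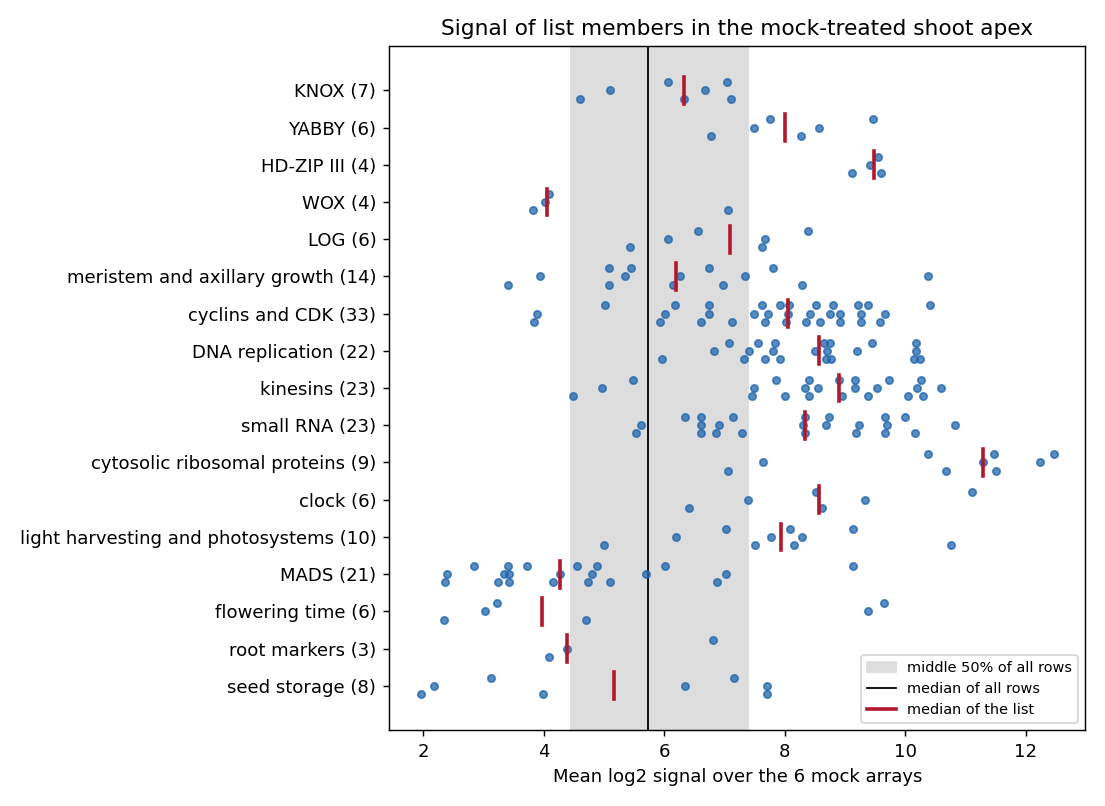
Mean log2 signal over the 6 mock arrays (x axis) of each named gene in 17 lists (y axis, number of genes in parentheses; points are spread vertically for visibility only). The 4 HD-ZIP III genes lie to the right of the grey band that holds the middle 50% of all rows. So do the medians of the replication, kinesin and ribosomal protein lists and of others, such as the clock and YABBY lists. To its left lie 11 of 21 MADS and 3 of 4 WOX genes.

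The mock arrays of 12 h were then compared with those of 3 h, to describe what the apex does over 9 h in liquid culture without DEX. The light regime and the clock times of harvest are not given in the sources used here, so time in culture and time of day cannot be told apart. No row passed an adjusted p of 0.05 in limma: 0 of 54922 rows were called (0%), and the smallest adjusted p was 0.145. An unadjusted p under 0.05 was reached by 5614 rows (10.2%), of which 2462 (4.48%) were higher and 3152 (5.74%) lower at 12 h. At an unadjusted p under 0.01 and a fold of at least 2, 36 rows were higher (0.0655%) and 38 lower (0.0692%) at 12 h. These counts were 11 higher and 2 lower over rows paired with 1 gene, and 23 higher and 7 lower over rows at or above the median row. The median difference over all rows was -0.02 on the log2 scale, and 95% of rows lay between -0.51 and 0.45. Without replicate 2 of mock 3 h, 3 rows were higher and 6 lower at adjusted p under 0.05, and 82 were higher and 89 lower by the fold limit. Of the 6 lower rows 4 hold identical values, which leaves 3 distinct ones, and none of the 9 rows is paired with a named gene.

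Since no gene passed the test, the values that follow describe these arrays, and the genes were ordered by the size of the difference. The 12 h and 3 h arrays did not overlap for 10326 rows (18.8%), 7.77% higher and 11% lower at 12 h. For the 1734 named genes the shares were 11.9% higher and 10.5% lower.

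*BGLU28* (NCBI gene 4345996), a β-glucosidase gene, had the largest positive difference among named genes. Its log2 signals were 7.90, 8.31 and 7.66 at 12 h, against 6.40, 7.34 and 6.41 at 3 h. The groups did not overlap, and the difference was 1.24 (SE 0.32), a fold of 2.36 (limma, adjusted p = 0.273). Replicate 2 of 3 h lay between the 12 h arrays and the other 3 h arrays.

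*CIPK15* (NCBI gene 4349594), a kinase of the response to low oxygen and sugar starvation, had 6.83, 6.74 and 7.19 at 12 h, against 5.76, 5.95 and 5.45 at 3 h. The difference was 1.20 (SE 0.23), a fold of 2.30, with an adjusted p of 0.170 in limma. Here replicate 2 did not stand apart from the other 3 h arrays. *BGLU28* and *CIPK15* were the 2 named genes past the fold limit, both higher at 12 h (0.115% of named genes), and 0 named genes were past it in the other direction (0%).

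*BU1*, a positive regulator of brassinosteroid responses, had 6.96, 7.33 and 6.48 at 12 h, against 6.01, 6.44 and 5.44 at 3 h (difference 0.96, SE 0.28, adjusted p = 0.306 in limma). The lowest 12 h array was barely above the highest 3 h array. *CYP734A6*, an enzyme that inactivates brassinosteroids, had 6.93, 7.17 and 6.87 at 12 h, against 5.90, 6.51 and 6.06 at 3 h (difference 0.83, SE 0.24). *CatA*, a catalase gene, had 5.38, 5.81 and 5.50 at 12 h, against 4.42, 5.06 and 4.47 at 3 h (difference 0.92, SE 0.21, adjusted p = 0.240 in limma). For both genes the groups did not overlap, and replicate 2 was the highest 3 h array.

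*EXPB3*, a β-expansin gene of cell wall loosening, shows how wide the spread could be. It had 9.18, 8.92 and 7.92 at 12 h, against 7.13, 8.46 and 7.86 at 3 h. These groups overlapped, and the difference of 0.85 had an SE of 0.38. The ethylene synthesis gene *ACO1* likewise overlapped, with 9.30, 9.36 and 8.95 at 12 h, against 8.28, 9.05 and 8.31 at 3 h. *ACS1*, which acts one step before *ACO1*, had 6.04, 5.99 and 5.39 at 12 h, against 4.66, 5.30 and 5.21 at 3 h, with no overlap (difference 0.75, SE 0.22).

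Negative differences among named genes were smaller. The largest belonged to *CSLF2*, a cellulose synthase-like gene, with a very dim row of 2.18, 1.71 and 2.28 at 12 h, against 2.72, 2.37 and 3.13 at 3 h. Its difference was -0.69, and the 95% interval of -1.42 to 0.04 included 0. *AMY1.6*, an α-amylase gene, had 4.19, 3.80 and 3.81 at 12 h, against 4.86, 4.35 and 4.56 at 3 h (difference -0.66, SE 0.21). Both rows were dim, at percentiles 2.31 and 21.4 of all rows, and so were those of *GLUB-2* (difference -0.59) and *H2B.10* (difference -0.59) at percentiles 0.798 and 7.85. *NAAT1*, an enzyme of the synthesis of iron-chelating phytosiderophores, had 5.12, 5.34 and 5.44 at 12 h, against 5.996, 5.76 and 5.88 at 3 h (difference -0.58, SE 0.22).

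The smallest p of any named gene belonged to a brighter row. *EXPA11* (NCBI gene 4325180), an α-expansin gene, had 7.64, 7.78 and 7.80 at 12 h, against 8.26, 8.29 and 8.20 at 3 h. The difference was -0.51 (SE 0.09), with an unadjusted p of 9.9e-05 and an adjusted p of 0.168 in limma. *PCF5*, a TCP transcription factor gene, showed the same tightness with 7.99, 8.15 and 7.98 at 12 h, against 8.53, 8.47 and 8.55 at 3 h (difference -0.48, SE 0.10, adjusted p = 0.222 in limma). In both genes replicate 2 lay close to the other 3 h arrays, and the groups did not overlap.

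**Figure D2:**
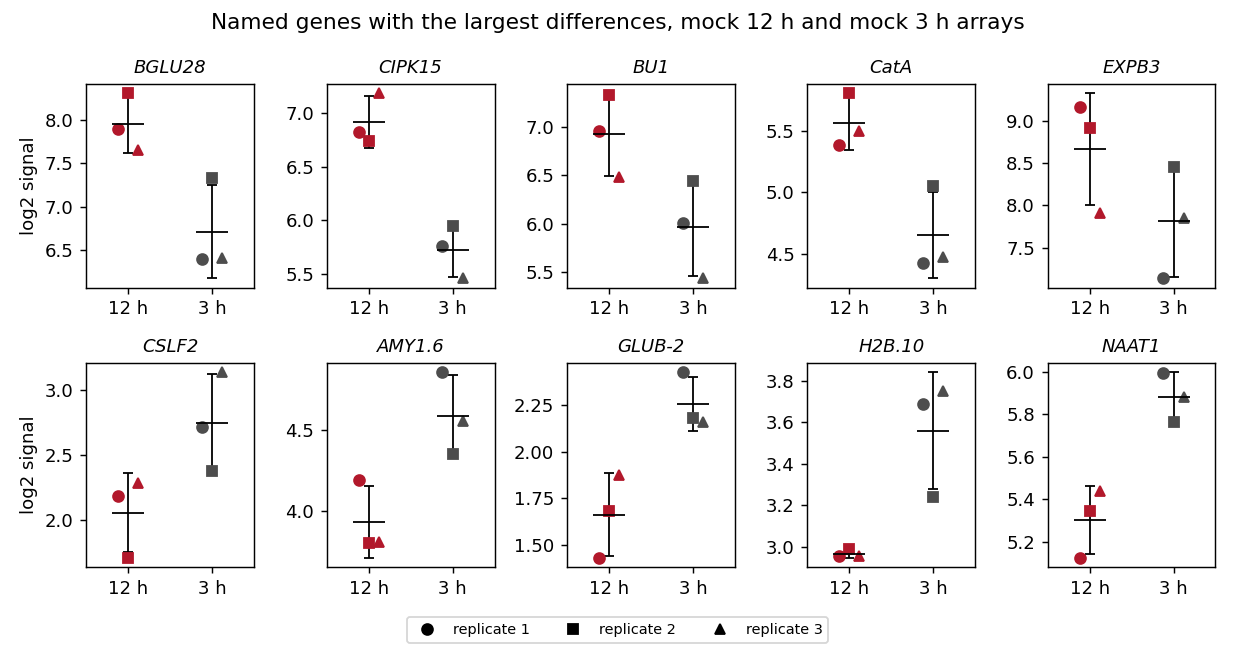
Log2 signal (y axis) in each mock 12 h array (red, left) and mock 3 h array (grey, right) for the 5 named genes with the largest positive and the 5 with the largest negative difference; bars give the mean and SD of 3 arrays. Only *EXPB3* has overlapping groups, and the 3 h square (replicate 2) is the 3 h point nearest to the 12 h arrays in 9 of the 10 genes.

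Clock genes were set apart because the groups, which differ by 9 h of culture, could differ in phase. Whether they were taken at different times of day is not given. All 6 named clock genes were above the median row, and *GI*, an evening gene, was the brightest with a level of 11.10 ± 0.08. Its log2 signals were 11.09, 11.24 and 11.14 at 12 h, against 11.004, 11.09 and 11.05 at 3 h. The difference was 0.11 (95% interval -0.09 to 0.31), although the groups did not overlap. *LHY*, a morning gene, had 7.43, 7.48 and 7.37 at 12 h, against 7.36, 7.42 and 7.27 at 3 h, which overlapped (difference 0.07, 95% interval -0.17 to 0.31).

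Among the PRR genes, which encode pseudo-response regulators, *PRR37* had 9.28, 9.36 and 9.17 at 12 h, against 9.35, 9.30 and 9.49 at 3 h (difference -0.11, 95% interval -0.33 to 0.12). *PRR73* had a difference of 0.08 (95% interval -0.11 to 0.28), and *PRR95* one of 0.18 (95% interval -0.13 to 0.49). *PCL1*, an evening complex gene, had a difference of 0.17 (95% interval -0.10 to 0.43), with groups that did not overlap. Of the 6 clock genes 2 were thus apart, both higher, beside 7.77% of all rows and 11.9% of named genes apart and higher. Of the 6, 0 passed the test, and no 95% interval reached a 2-fold difference in either direction. The median difference of the list was 0.10, beside -0.02 over all rows. A p that misses the threshold does not show that levels were equal, and the intervals give the size of difference that the 6 arrays leave possible.

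Meristem and leaf regulators were mostly close at both times, with *YAB1* as the member that differed most. *YAB1* had 7.74, 7.94 and 7.68 at 12 h, against 7.01, 7.40 and 7.15 at 3 h, with no overlap (difference 0.60, SE 0.13, unadjusted p = 0.00087, adjusted p = 0.226 in limma). *YAB2* (difference 0.23) was also apart and higher, and *YAB4* (-0.18) and *YAB5* (-0.12) were apart and lower. *YAB4* had the tightest groups, at 7.65, 7.66 and 7.67 at 12 h, against 7.85, 7.85 and 7.81 at 3 h. *YAB3* (-0.13) and *DL* (0.05) overlapped, and the median over the 6 genes was -0.03.

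In the KNOX list, *OSH71* had 7.44, 7.37 and 7.08 at 12 h, against 6.90, 7.10 and 6.76 at 3 h (difference 0.38, SE 0.14), which overlapped slightly. *HOS58* had 6.62, 6.42 and 6.49 at 12 h, against 6.01, 6.23 and 6.19 at 3 h, with no overlap (difference 0.37, SE 0.14). The other members had differences of 0.24 (*OSH1*), 0.00 (*OSH15*), -0.05 (*HOS66*), -0.07 (*HOS59*) and -0.08 (*OSH45*), all with overlapping groups. The list median was 0.00, and 0 of 7 passed the test. The HD-ZIP III differences were small: *hox32* had 0.17, with groups apart, *HOX33* 0.04, *HOX10* -0.03 and *HOX9* -0.05. *HOX10* had the narrowest 95% interval of these genes, -0.21 to 0.15.

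The LOG genes mostly leaned lower at 12 h, with 5 negative differences (that of *LOGL7* near 0) and 1 positive. *LOG* had 5.78, 5.74 and 6.03 at 12 h, against 6.14, 6.40 and 6.28 at 3 h (difference -0.43, SE 0.11, adjusted p = 0.277 in limma). *LOGL1* had 7.38, 7.50 and 7.46 at 12 h, against 7.64, 7.83 and 7.96 at 3 h (difference -0.37, SE 0.10). *LOGL3*, a LOG-like gene, had 7.96, 7.80 and 7.73 at 12 h, against 7.43, 7.61 and 7.48 at 3 h (difference 0.33, SE 0.14). These 3 genes and *LOGL10* (-0.15) were apart, while *LOGL6* (-0.06) and *LOGL7* (0.00) overlapped. The list median was -0.11, with 1 of 6 genes apart and higher and 3 apart and lower, and 0 passed the test. Beside these stand 7.77% of all rows apart and higher and 11% apart and lower, and 11.9% and 10.5% of named genes. The mean log2 signal over the list was 6.88 to 6.92 in the 12 h arrays and 6.97 to 7.04 in the 3 h arrays.

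The WOX rows had differences between -0.18 and 0.06, with *WOX4* at 7.06, 7.22 and 6.97 at 12 h, against 6.87, 7.13 and 7.15 at 3 h (difference 0.04, 95% interval -0.26 to 0.33). *QHB* (0.06) and *WOX6* (0.01) overlapped between the times, and *WOX7* (-0.18) was apart and lower. Among genes of axillary growth, the strigolactone receptor gene *D14* had 7.54, 7.74 and 7.61 at 12 h, against 6.74, 7.33 and 7.09 at 3 h (difference 0.58, SE 0.16). The gene of its F-box partner *D3* had 7.14, 7.16 and 7.07 at 12 h, against 6.83, 6.83 and 6.86 at 3 h (difference 0.28, SE 0.11). Both were apart and higher, the only ones apart of the 14 genes in that list. That share of 14.3% was near the 11.9% of named genes apart and higher, with 7.77% over all rows.

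**Figure D3:**
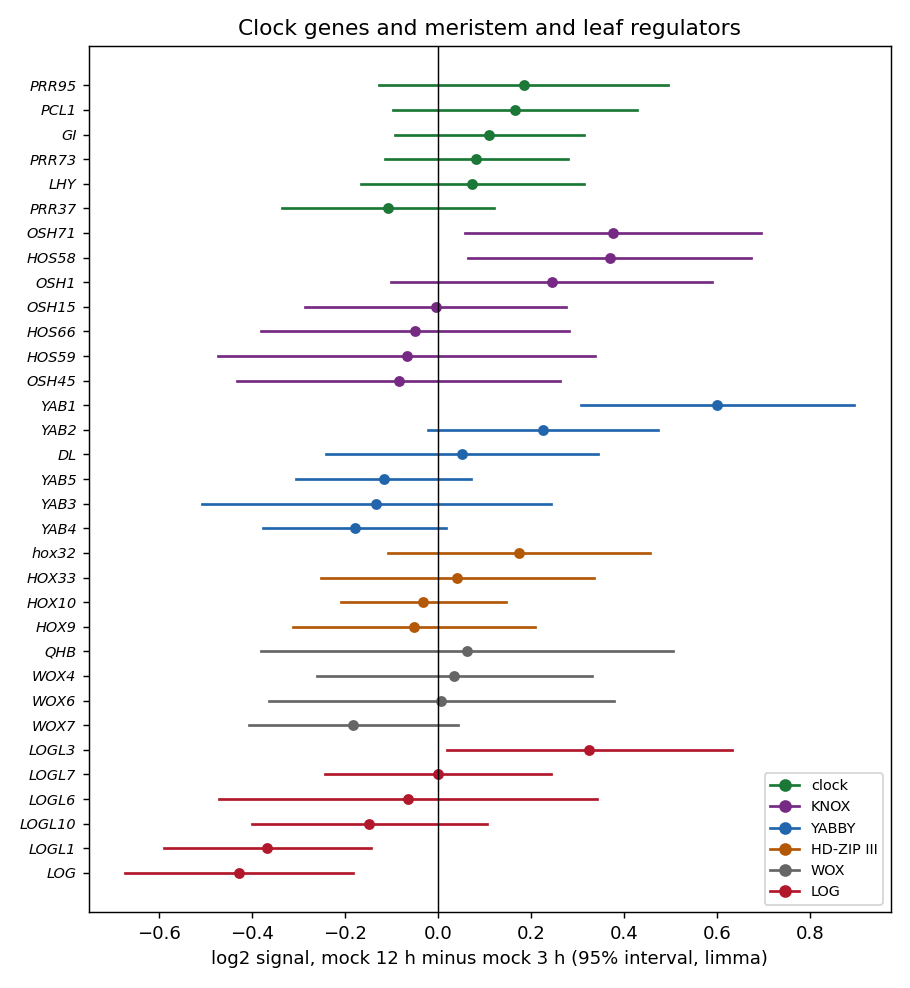
Difference in log2 signal, mock 12 h minus mock 3 h (x axis), with its 95% interval from limma, for the 33 named genes of the clock, KNOX, YABBY, HD-ZIP III, WOX and LOG lists (y axis). Most intervals include 0, *YAB1* lies farthest to the right at 0.60 and *LOG* farthest to the left at -0.43.

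Over the 42 lists with at least 3 members, 0 members passed the test in either direction, and the median differences lay between -0.17 (flowering time, 6 genes) and 0.20 (low oxygen, 11 genes). Of these lists 22 had a median above 0 and 20 one below 0. The lists are therefore described by how many members had groups apart, beside 7.77% of all rows higher and 11% lower. The lists hold only named genes, so the closer background is the 11.9% of named genes higher and 10.5% lower.

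DNA replication genes had the largest share apart in 1 direction among lists of at least 10 genes. Of 22 genes 10 were apart and lower at 12 h and 0 apart and higher, with a median difference of -0.14. *MCM2* had 10.04, 10.15 and 10.19 at 12 h, against 10.39, 10.27 and 10.41 at 3 h (difference -0.23, SE 0.10), and *OsMCM6*, of the same helicase, had 8.44, 8.70 and 8.70 at 12 h, against 8.90, 8.82 and 8.93 at 3 h (difference -0.27, SE 0.11). The mean log2 signal over the list was 8.32 to 8.37 in the 12 h arrays and 8.41 to 8.52 in the 3 h arrays. The upper quartile and the mean over all rows were also lower at 12 h. With quantile normalization, which gives all arrays the same distribution, 9 of the 22 were apart and lower (all rows 9.39%) and 0 apart and higher (all rows 9.17%). The list mean was then 8.29 to 8.34 at 12 h and 8.38 to 8.48 at 3 h. Without replicate 2 of 3 h, 15 of the 22 were apart and lower and 1 apart and higher, beside 18.9% of all rows lower and 13.2% higher. Of named genes 15.7% were then apart and lower and 21.7% apart and higher. Chromatin genes were apart and lower in 4 of 15 cases, among them the DNA methyltransferase gene *MET1A* with 6.37, 6.43 and 6.47 at 12 h, against 6.60, 6.87 and 6.98 at 3 h. Of 33 cyclin and CDK genes 7 were apart and lower and 2 apart and higher, with *CYCP2-1* (0.40) and the CDK inhibitor gene *KRP1* (0.33) having the largest positive differences, both with overlapping groups.

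Redox and detoxification genes leaned the other way. Of 50 genes 14 were apart and higher at 12 h and 2 apart and lower, with a median difference of 0.07. They included *CatA*, the peroxidase gene *PRX74* with 6.53, 6.71 and 6.35 at 12 h, against 5.79, 6.26 and 5.65 at 3 h, and the glutaredoxin gene *GRXC15* with 5.05, 5.45 and 5.30 at 12 h, against 4.49, 4.91 and 4.64 at 3 h. The glutathione S-transferase gene *GST-I* had a difference of 0.81 (SE 0.26) with overlapping groups. The mean log2 signal over the list was 7.40 to 7.46 at 12 h and 7.26 to 7.36 at 3 h. Without replicate 2 of 3 h, 17 of the 50 were apart and higher and 3 apart and lower, beside 13.2% of all rows higher and 18.9% lower. Of named genes 21.7% were then apart and higher and 15.7% apart and lower.

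Aquaporin genes, whose products carry water across membranes, were apart and higher in 4 of 15 cases and apart and lower in 0. *TIP2-2*, of the vacuole membrane, had 9.80, 10.06 and 10.02 at 12 h, against 8.82, 9.49 and 9.33 at 3 h (difference 0.75, SE 0.25). *TIP1-1* had 9.08, 9.12 and 9.25 at 12 h, against 8.64, 8.84 and 8.61 at 3 h (difference 0.45, SE 0.11), and *PIP2-2* of the plasma membrane had 5.17, 5.29 and 5.14 at 12 h, against 4.59, 4.70 and 4.76 at 3 h (difference 0.52, SE 0.10, adjusted p = 0.170 in limma). The list median was 0.10. Without replicate 2 of 3 h, 5 aquaporin genes were apart and higher and 1 apart and lower. Of 13 brassinosteroid genes 4 were apart and higher and 0 apart and lower, *BU1* and *CYP734A6* among them. Without that replicate 4 were apart and higher and 2 apart and lower, beside 21.7% and 15.7% of named genes. Of 11 genes of the low oxygen response 3 were apart and higher and 1 apart and lower. *CIPK15* was far above the rest of that list in its difference, with the list mean at 6.37 to 6.43 at 12 h and 6.06 to 6.33 at 3 h.

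**Figure D4:**
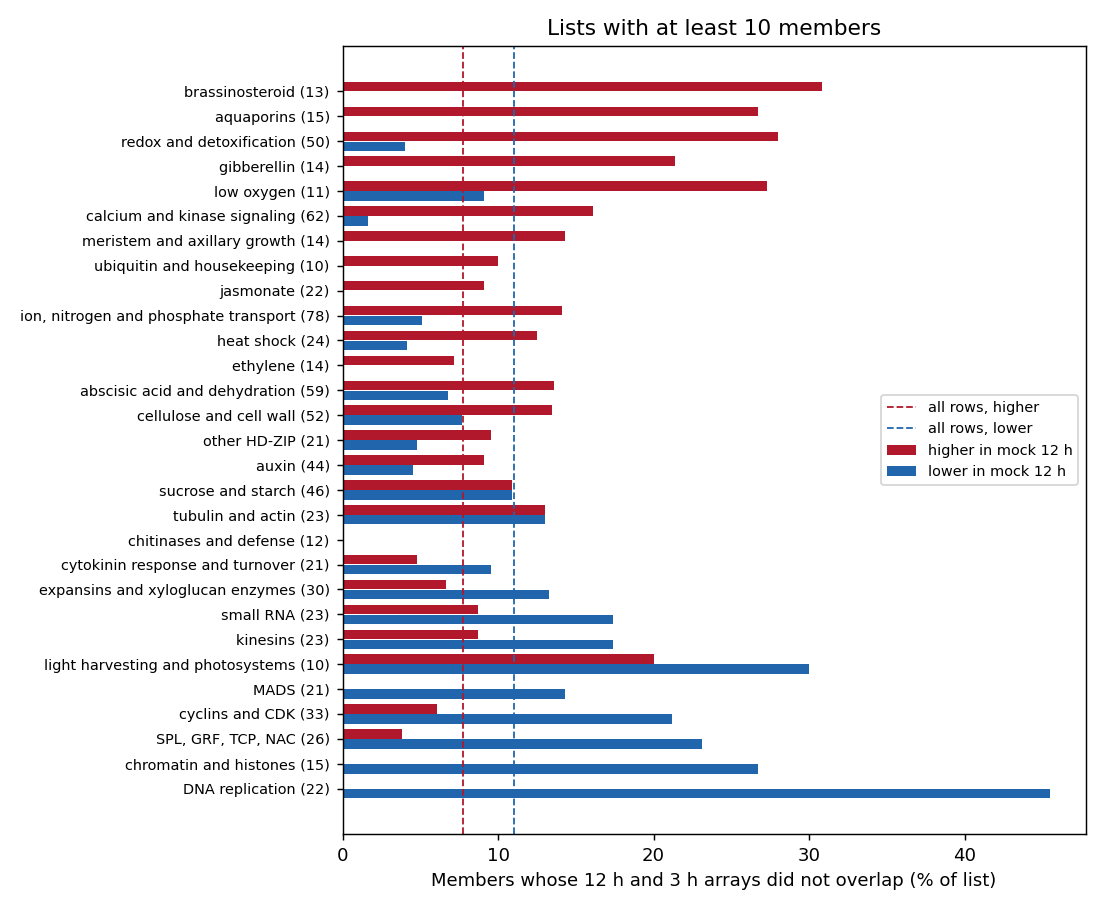
Share of each list's genes whose mock 12 h and mock 3 h arrays did not overlap (x axis, percent of the list), higher at 12 h in red and lower in blue, for lists of at least 10 genes (y axis, number in parentheses). Dashed lines mark the shares over all rows, 7.77% higher and 11% lower. For named genes, which make up the lists, the shares were 11.9% and 10.5%. Of 22 replication genes 10 are apart and lower. Brassinosteroid, aquaporin and redox genes have red bars of 30.8%, 26.7% and 28%.

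Finally, the difference between the times in mock arrays was set beside that in DEX arrays, for the 6 clock genes and the 5 largest differences each way, 16 genes in all. The change with time differed between DEX and mock for 29.9% of all rows and 49.3% of named genes (limma, adjusted p under 0.05), which is the background for these genes. The 10 genes with the largest mock differences were chosen by values that enter this contrast, so their tests are not independent of the choice. *PRR37* differed by -1.57 (SE 0.10) in DEX arrays and by -0.11 (SE 0.10) in mock arrays, and the difference between these changes was -1.46 (SE 0.15, adjusted p = 2.7e-05 in limma). *PRR95* differed by -0.43 (SE 0.14) in DEX arrays and by 0.18 (SE 0.14) in mock arrays (adjusted p of the difference 0.0379 in limma). The call of *PRR95* was lost with centred arrays (adjusted p = 0.0651 in limma), with quantile normalization (0.128), in the unmoderated test (0.0552) and in fits that left out a mock array other than replicate 2 of 3 h (0.0637 to 0.0839). The other 4 clock genes did not pass, and for *GI* the changes were 0.08 in DEX arrays and 0.11 in mock arrays.

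Of the 10 genes chosen by their mock difference, 6 passed, beside 49.3% of named genes. Of these 6, *BGLU28*, *CatA* and *EXPB3* lost the call under some of the alternatives run, and *NAAT1*, *BU1* and *CIPK15* under none. *BU1* was lower at 12 h in DEX arrays (-1.05, SE 0.28) and had the value 0.96 (SE 0.28) in mock arrays. *CIPK15* was higher at 12 h in DEX arrays by 2.47 (SE 0.23), beside 1.20 in mock arrays. *AMY1.6*, *GLUB-2*, *H2B.10* and *CSLF2* had negative differences in both, and none of these 4 passed the test of the difference between DEX and mock.

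**Figure D5:**
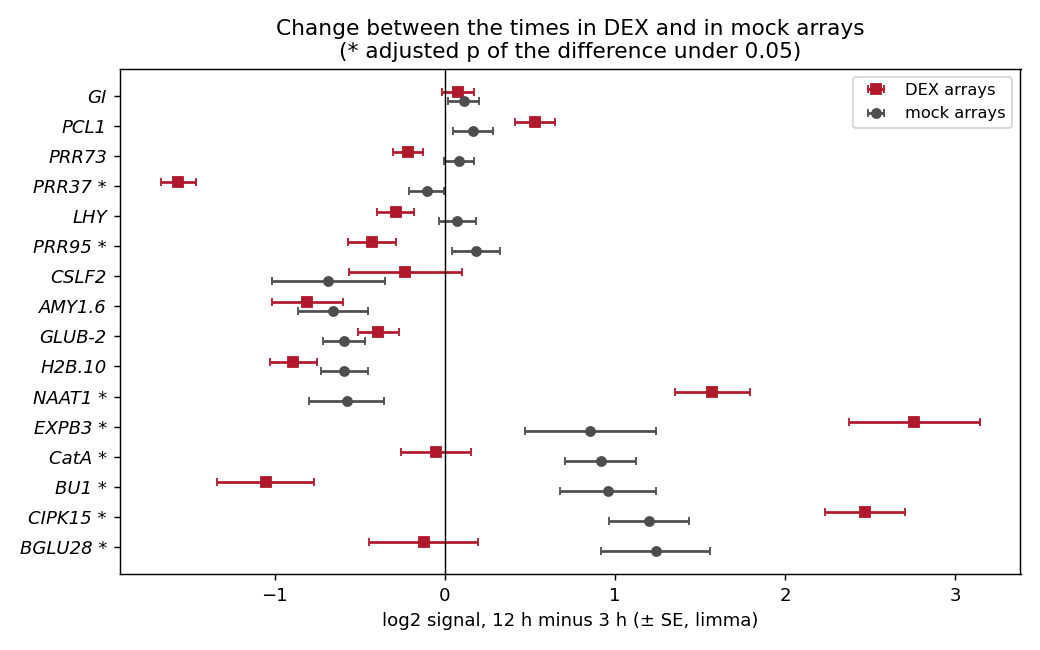
Difference in log2 signal between 12 h and 3 h (x axis, with SE from limma) in DEX arrays (red squares) and in mock arrays (grey circles) for the 6 clock genes and the 10 named genes with the largest mock differences (y axis). Stars mark the 8 genes whose change differed between DEX and mock at an adjusted p under 0.05; *PRR37* is near 0 in mock arrays and at -1.57 in DEX arrays.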

How the data were processed

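RNA of the shoot apices was hybridized to Affymetrix rice gene arrays of 1 color, 12 arrays in 4 groups of 3. The authors normalized the signals with Expression Console 1.3 and its standard settings for these arrays. The range of the deposited values is that of log2 signals, and they were used without further scaling. Precision is limited by the number of arrays.

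Rows were named through the annotation of the array and a reference gene table, which matched all 15140 genes; 38653 rows have no gene and 440 have several. Where a gene has several rows, the text gives the row with the highest mean over the 12 arrays. A model of 4 group means was fitted to all 12 arrays with limma 3.58.1 under R 4.3.3, with moderated variances, so the DEX arrays share in the estimate of the spread. Mock 12 h minus mock 3 h was tested with Benjamini-Hochberg adjustment over all 54922 rows. The authors' arrays were analysed with a fold limit of 2 and p under 0.01 and no named test, so the unadjusted limma p was used for that limit. A group is called apart where its 3 arrays lie wholly above or below the other 3. The fit was tested on simulated data. Tables and figures were made in Python 3.11.15 with pandas 2.3.3, NumPy 2.4.6 and matplotlib 3.10.9.

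The genes to be named were the largest changes past the test (none), the 2 largest differences each way and the 2 brightest of each list, every named member of the clock, KNOX, YABBY, HD-ZIP III, WOX and LOG lists, and the 12 brightest and 8 dimmest named genes. Marker genes of the tissue were added, and *BGLU28*, *NAAT1*, *GLUA1*, *PRX74* and *GRXC15* were picked after their values were seen. The members and lists were chosen with earlier results of these data known. No list of KNOX partners (BELL genes) had a named member. Sequences and coordinates were not used here. The alternatives tried were other scalings, filters on dim rows, variance models, limits, row sets, the replicate block and leaving out each mock array; counts of 2 lists without replicate 2 of mock 3 h and under other scalings were added after seeing the data.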

Additional observations from a re-analysis of the deposited data

Results flagged for a closer look

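For 8 of the 16 genes examined the change between 3 h and 12 h differed between DEX and mock arrays by a test of the difference itself (limma, adjusted p under 0.05), beside 29.9% of all rows and 49.3% of named genes. The values are the change in DEX minus that in mock arrays on the log2 scale. They were -1.46 for *PRR37*, -0.61 for *PRR95*, 2.15 for *NAAT1*, 1.91 for *EXPB3*, -0.97 for *CatA*, -2.01 for *BU1*, 1.27 for *CIPK15* and -1.36 for *BGLU28*. All but the PRR genes were chosen by their difference in mock arrays, which enters these values. Groups of 3 arrays were not tested for outlying samples.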

How the results depend on the processing

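The counts moved with the rows tested and with replicate 2 of mock 3 h. Across the 6 fits that left out 1 mock array, 0 to 3 rows were higher and 0 to 6 lower past the adjusted p, and by the fold limit 38 to 82 were higher and 42 to 89 lower; only the fit without that array called any row. Of the other settings, the filter at the median row called 1 row higher and 1 lower, and the variance trend 2 higher and 1 lower. By the fold limit the main counts of 36 higher and 38 lower were 11 and 2 with 1 row per gene and with only rows paired with 1 gene, and 23 and 7 with the filter at the median. The lower count was 25 with quantile normalization and with the filter at the 25th percentile, and 23 in the unmoderated test. The same replicate numbers did not pair the samples (correlations of their deviations -0.023, 0.014 and -0.0037); with the replicate block 0 rows were called, and 42 were higher and 39 lower by the fold limit.

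Among single genes, 0 of the 61 examined passed the threshold under any alternative, and small differences changed sign. With centred arrays and with quantile normalization *OSH15* became 0.0065 and 0.021, and *LOGL7* 0.011 and 0.021. When 1 mock array was left out, the differences that changed sign ranged from -0.12 to 0.091 for *OSH15*, -0.066 to 0.074 for *LOGL7*, -0.24 to 0.070 for *OSH45*, -0.17 to 0.068 for *HOS59* and -0.15 to 0.12 for *HOS66*. The ranges were -0.13 to 0.11 for *WOX6*, -0.054 to 0.093 for *WOX4*, -0.11 to 0.19 for *QHB*, -0.011 to 0.15 for *DL* and -0.029 to 0.12 for *HOX33*. Of the 122 levels recomputed with other scalings, 1 (*HOX10*) moved by more than its SD.

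For the change in DEX minus that in mock, *GI* became 0.036 centred, 0.18 with quantile normalization and -0.065 to 0.0067 when 1 mock array was left out. *PRR95* lost its call when centred (-0.545), with quantile normalization (-0.45) and unmoderated (-0.61), *BGLU28* in the same 3 settings (-1.29, -1.18 and -1.36), and *EXPB3* (1.91) and *CatA* (-0.97) unmoderated. *PCL1* gained a call with quantile normalization (0.51), *PRR73* (-0.30) with 1 row per gene, with the filter at the median and unmoderated, and *LHY* (-0.36) with that filter. Leaving out 1 mock array, *PRR95* ranged from -0.72 to -0.50, *CatA* from -1.17 to -0.84 and *BGLU28* from -1.67 to -1.19, and each lost the call in some of these fits. The calls of *PRR37*, *NAAT1*, *BU1* and *CIPK15* held in every setting run. The cause was not tested.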

Other observations

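The rows of flowering time genes lay at both ends of the array. *Ehd3* had a mean log2 signal of 9.65 ± 0.10 and *Ehd4* one of 9.38 ± 0.06 over the 6 mock arrays (SD), whereas *Hd1* had 3.23 ± 0.18 and the florigen gene *Hd3a* 2.35 ± 0.15. Of the 6 genes 3 were apart and lower at 12 h and 0 apart and higher, with a median difference of -0.17, and 0 passed the test. Over all rows 7.77% were apart and higher and 11% apart and lower, and over named genes 11.9% and 10.5%. Among Argonaute genes, *MEL1*, known from rice germ cells, had a difference of -0.37 and *AGO2* one of -0.29 (12 h minus 3 h), both apart and lower. *AGO18* went the other way, with the largest positive difference of the small RNA list (0.24). Of the 23 genes in that list 4 were apart and lower and 2 apart and higher, with 13 negative and 10 positive differences. In hormone lists, *IAA17* was the brightest auxin gene at 11.74 ± 0.20 and *ARF4* had 11.04 ± 0.07, and the brassinosteroid receptor gene *BRI1* had 9.34 ± 0.07 with its partner *BAK1* at 9.62 ± 0.07. Of 14 gibberellin genes 3 were apart and higher at 12 h and 0 apart and lower. The shares beside these are the same 7.77% and 11% of all rows, and 11.9% and 10.5% of named genes.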
